A study of Mus musculus with 16 samples.

Results

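The genes examined here encode the arginase and polyamine pathway: Slc7a1, Arg1, Odc1, Azin1, Oaz1, Srm, Sms and Sat1. They were named by function, with no measured value in the rule, and all 8 were found among the 51912 genes of the count table. RNA was sequenced from group 2 innate lymphoid cells (ILC2s), the tissue-resident lymphocytes that answer epithelial alarmins with IL-5 and IL-13. The cells came from the lungs of WT mice (Pac1+/+) or of Pac1-/- mice, which lack Dusp2, the dual-specificity phosphatase also called PAC1, in every cell of the body; mice of both genotypes were on the C57BL/6J background, sex and age matched and 6 to 8 weeks old. Sorted ILC2s were stimulated for 4 hours under 1 of 4 conditions, IL-7, IL-7 with IL-33, IL-7 with IL-33 and calcitonin gene-related peptide (CGRP), or IL-7 with IL-33 and neuromedin U (NMU), so that every group received IL-7. The latter 3 conditions are called IL-33, CGRP and NMU below. Crossing genotype with treatment gave 8 groups of 2 libraries, 16 in all, each from about 500 cells sorted after the stimulation. In the paper's culture method, sorted lung ILC2s were first expanded for 1 to 2 weeks with IL-2 and IL-7. Both were removed before the stimuli were added. Its sequencing method does not restate this step for these libraries. The labels do not say whether the 2 libraries of a group came from separate mice or cultures, so the p-values measure the spread between these libraries, which may be technical.

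Arginase 1 splits arginine into ornithine and urea, and ILC2s are known as a lung lymphocyte that holds this enzyme constitutively. Arginine enters the cell through cationic amino acid transporters such as CAT1, the product of Slc7a1. Ornithine decarboxylase, encoded by Odc1, turns ornithine into putrescine and commits it to polyamine synthesis, and spermidine synthase (Srm) and spermine synthase (Sms) then add aminopropyl groups to make spermidine and spermine. Antizyme, the product of Oaz1, binds ornithine decarboxylase and sends it to the proteasome, whereas antizyme inhibitor (Azin1) binds antizyme and spares the enzyme. Spermidine/spermine acetyltransferase (Sat1) starts the breakdown and export of polyamines. Several of these steps, the antizyme frameshift above all, are controlled by translation and protein stability, which counts of mRNA do not report.

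Total counts ran from 6764992 to 15963357 per library, with a median of 11071278. Levels are given as CPM, counts scaled to a common library size, with the trimmed mean of M values (TMM) used to make libraries comparable for a gene. A gene was called changed when its fold change passed 1.5 and its Benjamini-Hochberg adjusted p-value from the quasi-likelihood test of edgeR was below 0.05, over all genes tested. In the GENCODE M21 annotation of GRCm38 all 8 are protein-coding genes. Slc7a1 lies at chr5:148327410-148399904 on the minus strand, Arg1 at chr10:24915221-24927484 (minus), Odc1 at chr12:17544794-17551505 (plus) and Azin1 at chr15:38487427-38519266 (minus). Oaz1 lies at chr10:80826656-80829290 (plus), Srm at chr4:148591503-148594993 (plus), Sms at chrX:157443855-157492287 (minus) and Sat1 at chrX:155213132-155216449 (minus). The deleted gene gave little check of the labels: Dusp2 had 57 counts in 1 WT library with IL-7, 29 in 1 WT library with NMU and 0 in the other 14, Pac1-/- and WT alike. The 12 ILC2 markers summed to between 14132 and 32524 CPM (by library total). Il5 carried much of that sum, at 14391 to 24699 CPM with NMU and 5125 to 9749 CPM otherwise, while the other 11 summed to 7430 to 8586 CPM with NMU and 8816 to 11096 CPM in the 12 other libraries. These 11 did not move together. Il7r was at 334 to 410 CPM with NMU against 678 to 1030 CPM, and Il13 at 111 to 312 CPM against 4.68 to 49.0 CPM. The part of the ILC2 markers in the NMU values of the members was not tested. In bulk RNA, fewer cells of a type and less RNA per cell cannot be told apart.

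The promoter windows of the pair of members called in a treatment comparison are shown, because both moved together between the peptides. Each is the 250 bases before the annotated start in RefSeq (GRCm38.p6), read in the direction of the gene, and capitals mark the E-box CACGTG, the site of MYC family factors, or the CRE core TGACG, part of the site of cAMP-responsive factors, searched on both strands. RefSeq gives each gene 2 start windows, and the one at the GENCODE gene start is printed, chr5:148399905-148400154 for Slc7a1 and chrX:157492288-157492537 for Sms (both minus strand).
Slc7a1: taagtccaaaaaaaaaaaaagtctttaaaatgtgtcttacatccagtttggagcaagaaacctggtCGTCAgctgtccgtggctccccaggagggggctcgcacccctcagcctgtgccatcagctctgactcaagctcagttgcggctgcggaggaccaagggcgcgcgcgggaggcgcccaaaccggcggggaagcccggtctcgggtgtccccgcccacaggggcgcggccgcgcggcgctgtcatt
Sms: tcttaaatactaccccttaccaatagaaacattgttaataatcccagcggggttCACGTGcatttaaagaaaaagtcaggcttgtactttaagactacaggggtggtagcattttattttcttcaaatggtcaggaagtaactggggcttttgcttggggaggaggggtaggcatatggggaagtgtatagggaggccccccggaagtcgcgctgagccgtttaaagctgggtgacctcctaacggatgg
The printed Slc7a1 window held a CRE core 184 bases before the start, on the opposite strand as CGTCA, and the printed Sms window held an E-box 196 bases before the start. The second windows, chr5:148392816-148393065 for Slc7a1 and chrX:157491369-157491618 for Sms, held 0 CRE cores and 0 E-boxes. Among the other members the windows of Oaz1 held 2 CRE cores and those of Odc1 held 1. Of 32851 promoter windows of this length, 17.8% held a CRE core, 6.02% an E-box and 1.55% the full CRE TGACGTCA, which overlaps the CRE core. The table held windows for 5 of the 8 members, Odc1, Sms, Sat1, Oaz1 and Slc7a1, and not for Arg1, Srm and Azin1, and the full CRE was in none of them. The matches are descriptions of letters and not of bound sites.

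Scaled for transcript length as TPM, the members spanned a wide range. Oaz1 had the highest median over the 16 libraries, 739.8 TPM, with Sat1 at 551 TPM, Odc1 at 487 TPM and Arg1 at 325 TPM. The other members lay far lower, with Sms at 37.6 TPM, Azin1 at 25.1 TPM, Srm at 23.8 TPM and Slc7a1 at 10.2 TPM. Every one of the 16 libraries had more Arg1 than Sms, and 15 had more Oaz1 than Sat1, but neighbours in the order were not always separate, since Sat1 exceeded Odc1 in 7 of 16 libraries and Azin1 exceeded Srm in 7 of 16. Odc1 was above Arg1 in 12, Sms above Azin1 in 15 and Srm above Slc7a1 in 13. The widest spread was that of Srm, from 0.0934 to 211 TPM, and the narrowest among the abundant members was that of Sat1, from 464 to 657 TPM.

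**Figure D1:**
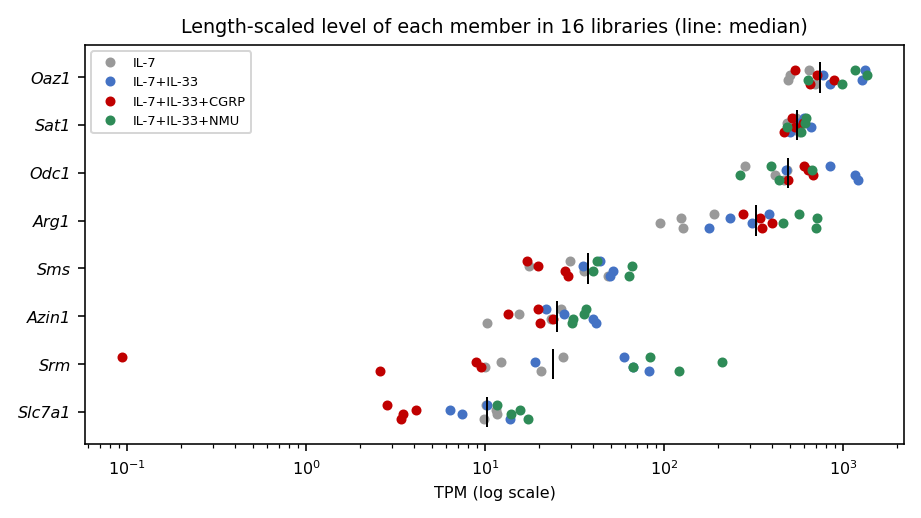
Length-scaled level (TPM, log axis) of each member in the 16 libraries, coloured by treatment, with a line at the median. Oaz1, Sat1, Odc1 and Arg1 form an abundant group with medians of 325 to 739.8 TPM, and Srm has a far wider spread than the rest, with its 4 CGRP libraries at the low end.

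Slc7a1, the arginine transporter, had ranges that were apart for all pairs of treatments but IL-7 and NMU. The share of all genes with ranges apart was not counted, so such separation, here and for the other members, is description only. With IL-7 it stood at 66.3 and 71.9 in WT and 75.0 and 59.0 in Pac1-/- cells (CPM, replicates 1 and 2), and with IL-33 at 51.4 and 38.8 in WT and 33.3 and 55.2 in Pac1-/-. With CGRP it stood at 19.5 and 26.6 in WT and 22.1 and 23.7 in Pac1-/-, and with NMU at 66.8 and 69.4 in WT and 95.8 and 94.1 in Pac1-/-. Every CGRP library lay below every library of the other 3 treatments, every IL-33 library lay below every IL-7 library, and the NMU libraries overlapped only those with IL-7. The mean was 81.5 ± 15.6 CPM with NMU (SD, n = 4) and 23.0 ± 2.97 CPM with CGRP, and the difference passed the test (log2 fold change 1.81 ± 0.28 SE, edgeR adjusted p = 0.0106). Against IL-33 the log2 fold changes were -0.97 ± 0.35 with CGRP (adjusted p = 0.249) and 0.85 ± 0.28 with NMU (adjusted p = 0.523), neither called. Without replicate 2 of the Pac1-/- NMU libraries the call between the peptides was lost (log2 fold change 1.77, adjusted p = 0.0543), and it held without any other single library.

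Arg1 had its lowest mean with IL-7 and its highest with NMU. It measured 241 and 150.0 in WT and 117 and 147 in Pac1-/- cells with IL-7 and 372 and 274 in WT and 269 and 139 in Pac1-/- with IL-33. With CGRP it measured 369 and 430.4 in WT and 493 and 479 in Pac1-/-, and with NMU 627 and 616 in WT and 610.0 and 738 in Pac1-/- (CPM). All 4 NMU libraries exceeded all 12 others, and all 4 CGRP libraries exceeded all 4 IL-7 libraries, whereas the IL-33 libraries overlapped both IL-7 and CGRP. The mean went from 263 ± 95.5 CPM with IL-33 to 648 ± 60.8 CPM with NMU (SD, n = 4), a log2 fold change of 1.33 ± 0.28 (SE) whose adjusted p of 0.219 in edgeR missed the threshold (unadjusted p = 0.000679). The same difference was called when genes with few counts were kept (adjusted p = 0.00441), when only genes with 10 or more counts in every library were tested (0.0338), when all 16 libraries shared 1 fit (0.0377), and by DESeq2 (5.36e-04). In edgeR it was not called with RLE size factors (adjusted p = 0.225), a replicate block (0.308), a replicate block within genotype (0.655) or library totals alone (0.25). Leaving out any single library also gave no call (0.222 to 0.761), nor did either genotype alone (0.958 in WT, 0.497 in Pac1-/-). CGRP against IL-33 gave 0.77 ± 0.27 (adjusted p = 0.242), IL-33 against IL-7 gave 0.69 ± 0.26 (0.427) and NMU against CGRP gave 0.56 ± 0.15 (0.0889), none called.

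Macrophages are the other well-known source of Arg1 in the lung, so their markers were read beside it. As its methods describe for ILC2s from lung, the study depleted most myeloid, T and B cells with magnetic beads before the sort. The 8 macrophage markers summed to 1.57 to 19.1 CPM (by library total) in 14 libraries and to 119 and 45.5 CPM in the WT NMU libraries, where Lyz2 alone gave 108 and 32.1 CPM. Cd68 gave 10.9 and 12.4 CPM in the WT NMU libraries and 0 to 17.3 CPM in the others. Csf1r and Marco were at 0 in the WT NMU libraries and in nearly all others. Csf1r had counts only in replicate 1 of the Pac1-/- NMU cells, at 1.98 CPM. The Pac1-/- NMU libraries, with marker sums of 13.8 and 2.19 CPM, had 610.0 and 738 CPM of Arg1. The summed markers of lung epithelium were also highest in the WT NMU libraries, at 296 and 199 CPM against 10.8 to 94.6 CPM elsewhere. Most of these sums came from Sftpc, at 171 and 108 CPM, and Scgb1a1, at 86.9 and 46.9 CPM. Epcam did not follow, at 37.5 and 41.3 CPM there and up to 91.9 CPM with IL-33, and Krt8 was at 0 and 2.43 CPM. The part of the macrophage and epithelial markers in the NMU values of the WT libraries was not tested. Arg2, the mitochondrial isozyme, was at 0 in 14 libraries and reached at most 4.53 CPM, in a Pac1-/- CGRP library. Nos2, the inducible synthase that uses the same arginine, stayed at or below 1.44 CPM.

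**Figure D2:**
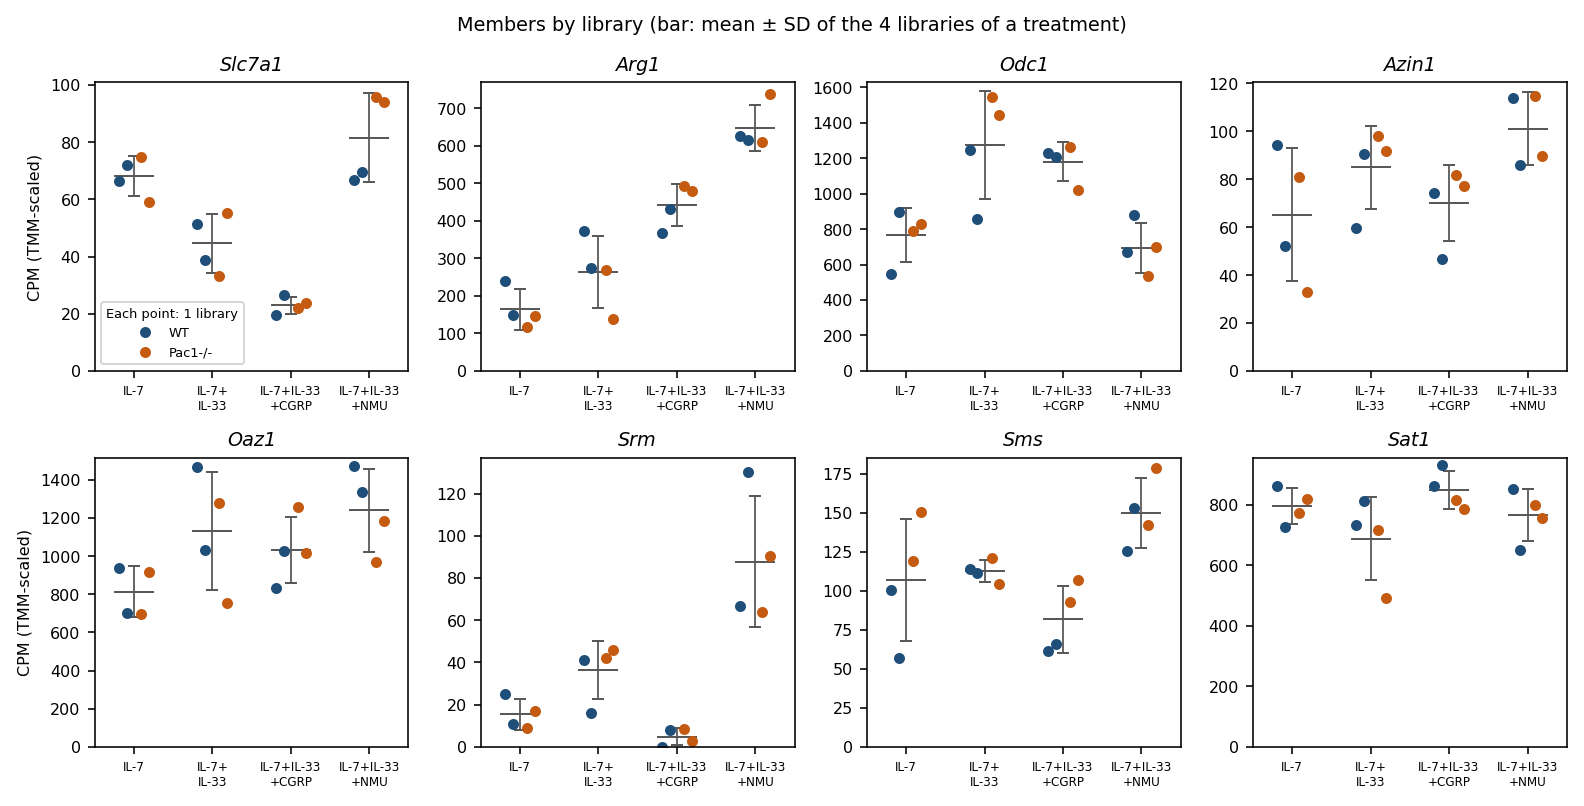
TMM-scaled CPM of each member in each library (points, WT blue and Pac1-/- orange) under the 4 treatments, with the mean and SD of the 4 libraries of a treatment. Slc7a1, Srm and Sms sit lowest with CGRP and highest with NMU, Arg1 steps up from IL-7 to NMU, Odc1 is high with IL-33 and CGRP, and Sat1 overlaps across treatments.

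Odc1, the rate-limiting enzyme of polyamine synthesis, followed another order. It measured 547 and 897 in WT and 788 and 828 in Pac1-/- cells with IL-7 and 1247 and 859 in WT and 1544 and 1446 in Pac1-/- with IL-33 (CPM). With CGRP it measured 1229 and 1206 in WT and 1266 and 1021 in Pac1-/-, and with NMU 671 and 878 in WT and 534 and 699.9 in Pac1-/-. The CGRP libraries all lay above the IL-7 and the NMU libraries, while 1 IL-33 library, of WT cells, fell within the range of IL-7 and NMU. The mean was 1180.5 ± 109 CPM with CGRP and 696 ± 142 CPM with NMU (SD, n = 4), a log2 fold change of -0.77 ± 0.18 (SE) for NMU against CGRP with an edgeR adjusted p of 0.0506, just outside the threshold. IL-33 against IL-7 gave 0.73 ± 0.21 (adjusted p = 0.361) and NMU against IL-33 gave -0.86 ± 0.27 (0.497); both were called by DESeq2 (adjusted p = 0.0253 and 0.0425) and not by edgeR. CGRP against IL-33 gave -0.10 ± 0.19 (0.896). Odc1 has 13 near-identical genes, 11 of them with counts, which together held 3.98% as many counts as Odc1 itself.

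The antizyme pair that sets the life of ornithine decarboxylase had ranges that mostly overlapped between treatments. Oaz1 ranged from 697 to 938 CPM with IL-7, 755 to 1468 with IL-33, 831 to 1256 with CGRP and 969 to 1475 with NMU, and only NMU and IL-7 did not overlap. Azin1 ranged from 33.05 to 94.5 CPM with IL-7, 59.6 to 98.2 with IL-33, 46.9 to 81.9 with CGRP and 86.0 to 115 with NMU, so that only NMU and CGRP were apart. Neither gene was called in any comparison. Among the treatment comparisons the largest Oaz1 value was 0.48 ± 0.22 for IL-33 against IL-7 (edgeR adjusted p = 0.488) and the largest Azin1 value was 0.54 ± 0.25 for NMU against CGRP (0.279; log2 fold change ± SE). Of their paralogs, Oaz2 ranged from 0 to 20.7 CPM, Azin2 stayed at or below 0.274 CPM and Oaz3, known from the testis, reached 2.14 CPM in 1 library. Oaz1 shares sequence with a processed pseudogene, Oaz1-ps, that held 3.35% as many counts, and an exon of Azin1 overlaps the antisense gene Gm49077, for which no counts were analysed here.

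The synthases that lengthen putrescine had their lowest means with CGRP and their highest with NMU. Srm measured 24.8 and 10.6 in WT and 8.85 and 17.0 in Pac1-/- cells with IL-7 and 41.3 and 15.9 in WT and 41.9 and 45.8 in Pac1-/- with IL-33 (CPM). With CGRP it measured 0.0900 and 7.93 in WT and 8.34 and 2.53 in Pac1-/-, the first of these from 1 count, and with NMU 66.5 and 130.3 in WT and 63.7 and 90.6 in Pac1-/-. The CGRP libraries lay below and the NMU libraries above those of every other treatment. The mean was 87.8 ± 30.8 CPM with NMU and 4.72 ± 4.07 CPM with CGRP (SD, n = 4), a log2 fold change of 4.23 ± 0.97 (SE) with an edgeR adjusted p of 0.0506, just outside the threshold. CGRP against IL-33 gave -2.93 ± 1.02 (adjusted p = 0.23), NMU against IL-33 gave 1.30 ± 0.40 (0.497) and IL-33 against IL-7 gave 1.24 ± 0.50 (0.45). DESeq2 called the first of these 3 (adjusted p = 0.0175), as did edgeR with no filter on low counts (0.00526). Without replicate 2 of the WT CGRP libraries Srm gave -4.25 for CGRP against IL-33 and 5.09 for NMU against CGRP, and without replicate 1, the library with 1 count, -2.55 and 3.75, the latter called (adjusted p = 0.0158).

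Sms measured 101 and 56.9 in WT and 119 and 150.4 in Pac1-/- cells with IL-7 and 114 and 112 in WT and 121 and 105 in Pac1-/- with IL-33 (CPM). With CGRP it measured 61.8 and 66.1 in WT and 92.6 and 107 in Pac1-/-, and with NMU 126 and 153 in WT and 142 and 179 in Pac1-/-. Every NMU library exceeded every CGRP and every IL-33 library, and the wide IL-7 range overlapped all of them. The mean was 150.1 ± 22.5 CPM with NMU and 81.8 ± 21.5 CPM with CGRP, and this difference was called with its adjusted p just inside the threshold (log2 fold change 0.91 ± 0.21 SE, edgeR adjusted p = 0.04997, n = 4 per treatment). The call was lost without any 1 of the 8 libraries, with adjusted p-values of 0.0595 to 0.175, and also with RLE size factors (0.0539) and with no filter on low counts (0.0813). Part of the reads of this gene may have been counted elsewhere, since the processed pseudogene Sms-ps is identical over 1101 bases and held 18.6% as many counts. With the counts of Sms and Sms-ps added together the log2 fold change was 0.96 (edgeR adjusted p = 0.0492). Other genes with a matching stretch, among them Cep57 (114 bases) and Utp11 (107 bases), were not added in. CGRP against IL-33 gave -0.51 ± 0.22 (adjusted p = 0.329) and NMU against IL-33 0.41 ± 0.22 (0.731).

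Sat1, the acetyltransferase of polyamine catabolism, had the narrowest range of the abundant members. It ranged from 727 to 863 CPM with IL-7, 491 to 814 with IL-33, 787 to 933 with CGRP and 650.4 to 853 with NMU, and all 4 ranges overlapped. Its log2 fold changes in the treatment comparisons ran from -0.21 to 0.30, with standard errors of 0.16 to 0.23 and none called. Its paralog Sat2 was at 0 in 15 libraries.

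Across the members, IL-33 against IL-7 called 0 of 8 in edgeR, where 0.0462% of 12980 genes were called (6 genes). At an unadjusted p under 0.05, 3 members stood higher with IL-33, Odc1, Arg1 and Srm, where 10.5% of all genes met that level. DESeq2 called 1, Odc1, and 3.26% of all genes. The 4 T cell markers summed to 72.4 to 107 CPM (by library total) in the 4 IL-7 libraries and 2.15 to 26.3 CPM in the other 12, mostly from Cd3d, with Cd4 and Cd8a at 0 in those with IL-7, and their part in this comparison was not tested. CGRP against IL-33 also called 0 of 8, against 1.75% of 13160 genes. At the unadjusted level Srm, Slc7a1 and Sms were lower and Arg1 higher with CGRP, where 15.1% of all genes met that level. DESeq2 called 1, Srm, and 8.19% of all genes. NMU against IL-33 called 0 of 8, against 0.103% of 12567 genes. At the unadjusted level Arg1, Srm and Slc7a1 were higher and Odc1 lower with NMU, where 7.73% of all genes met that level. DESeq2 called Arg1 and Odc1, and 1.35% of all genes.

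The direct comparison of the peptides, NMU against CGRP, called 2 of 8 members, Slc7a1 and Sms, both higher with NMU, against 3.86% of 12834 genes called in either direction (495 genes, 185 of them higher with NMU). The median log2 fold change of the 8 members was 0.55 and that of all genes tested fell by 0.03. With the adjusted p of Srm and Odc1 at 0.0506 and that of Sms at 0.04997, the threshold ran between members with nearly equal values, and DESeq2 called all 4 of Slc7a1, Sms, Srm and Odc1, where it called 13% of all genes. At an unadjusted p under 0.05 stood 5 of the 8 members, these 4 and Arg1, and 19.4% of all genes. The direction of Odc1 was opposite to that of the other 3. The CGRP and NMU comparisons with IL-33 share the IL-33 libraries, and the comparison of the peptides uses the same CGRP and NMU libraries again. The marker sum for B cells was 104 and 111 CPM (by library total) in the Pac1-/- CGRP libraries and at most 15.3 CPM in the other 14. The mast cell and basophil markers summed to 76.4 to 177 CPM with CGRP and 39.8 to 77.2 CPM with NMU, mostly from Cpa3. The part of these marker lists in this comparison was not tested. Within WT cells alone, NMU against CGRP gave log2 fold changes of 1.56 for Slc7a1, 1.13 for Sms, 4.63 for Srm and -0.65 for Odc1. Within Pac1-/- cells alone the values were 2.08, 0.72, 3.85 and -0.86, with none called in either genotype at 2 against 2.

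**Figure D3:**
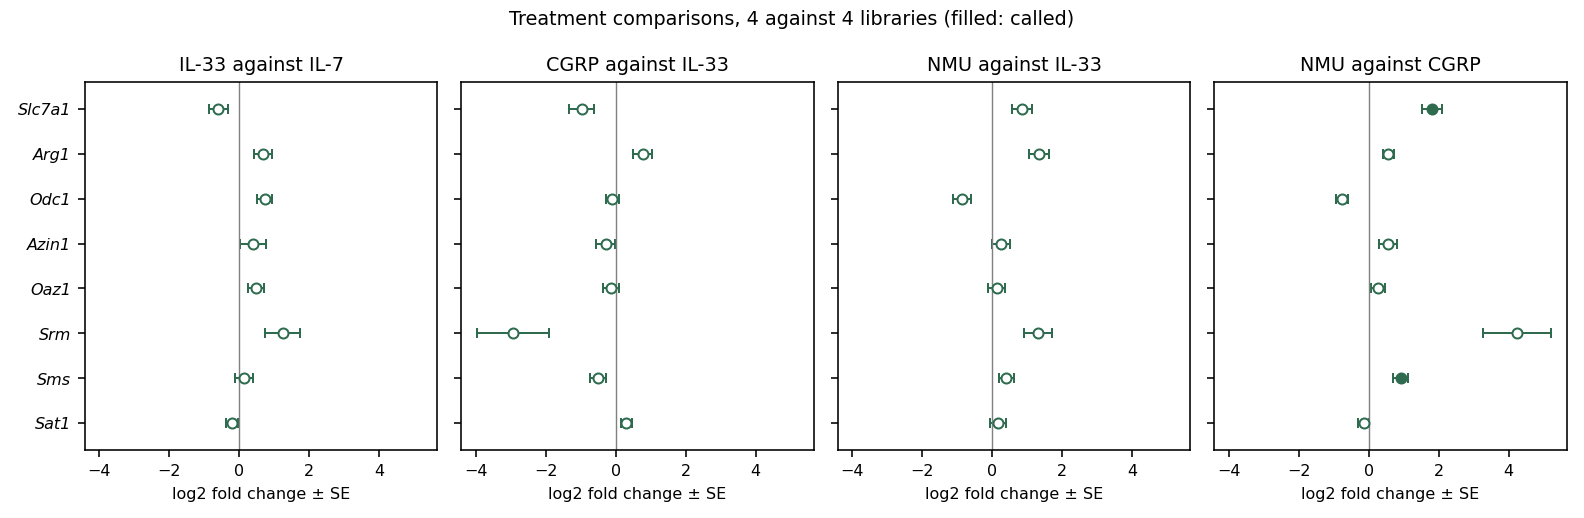
Log2 fold change with SE of each member in the 4 treatment comparisons (4 against 4 libraries, edgeR), filled where called. Only Slc7a1 and Sms in NMU against CGRP are filled, at 1.81 and 0.91, and Srm has the widest error bars.

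The rest of the pathway was followed with 37 further genes for arginine uptake and metabolism, supply of the aminopropyl donor, polyamine transport and oxidation, hypusination of eIF5A and the MYC regulators. In NMU against CGRP 27 of them were tested and 1 was called (3.70%, near the 3.86% of all genes tested). It was Aldh18a1, which makes the precursor of proline and ornithine from glutamate. Aldh18a1 measured 11.5 and 10.5 in WT and 3.09 and 4.39 in Pac1-/- cells with CGRP and 32.9 and 44.5 in WT and 80.7 and 51.0 in Pac1-/- with NMU (CPM), with no overlap (log2 fold change 2.97 ± 0.60 SE, edgeR adjusted p = 0.0318). The median log2 fold change of the 27 was 1.21, with 19 above 0. Eif5a, whose product carries the spermidine-derived residue hypusine, came next in order of p, at 283 and 490.1 in WT and 621 and 588 in Pac1-/- with CGRP and 1019 and 1492 in WT and 858 and 1129 in Pac1-/- with NMU (log2 fold change 1.21 ± 0.28, adjusted p = 0.0532). Many of the other large values belong to genes near the limit of detection, such as Slc7a3, another cationic amino acid transporter, which was at or below 0.617 CPM with CGRP and at 10.9 and 6.53 in WT and 13.5 and 2.60 in Pac1-/- cells with NMU (adjusted p = 0.103). Slc7a2, the transporter that macrophages pair with arginase, was at or below 14.7 CPM in every library.

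In the other 3 treatment comparisons none of the further genes was called. CGRP against IL-33 tested 27 of them, with a median log2 fold change that fell by 0.71 where all genes fell by 0.09. At an unadjusted p under 0.05 in edgeR stood 5 of the 27, where 15.1% of all genes met that level. Myc, which drives Odc1 and much of the pathway in proliferating cells, was the only one of these 5 that stood higher with CGRP, at 44.5 and 62.5 in WT and 60.2 and 51.0 in Pac1-/- cells against 11.1 and 21.1 in WT and 24.0 and 30.6 in Pac1-/- with IL-33 (CPM; log2 fold change 1.36 ± 0.38, edgeR adjusted p = 0.137). NMU against IL-33 tested 26, with a median of 0.36 where that of all genes was -0.07. The unadjusted level was met by 3 of them, among them Myc at 0.98 ± 0.40 (edgeR adjusted p = 0.603), and by 7.73% of all genes. IL-33 against IL-7 tested 26, with a median of 0.38 where that of all genes was 0.09. The unadjusted level was met by 4 of them and by 10.5% of all genes.

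**Figure D4:**
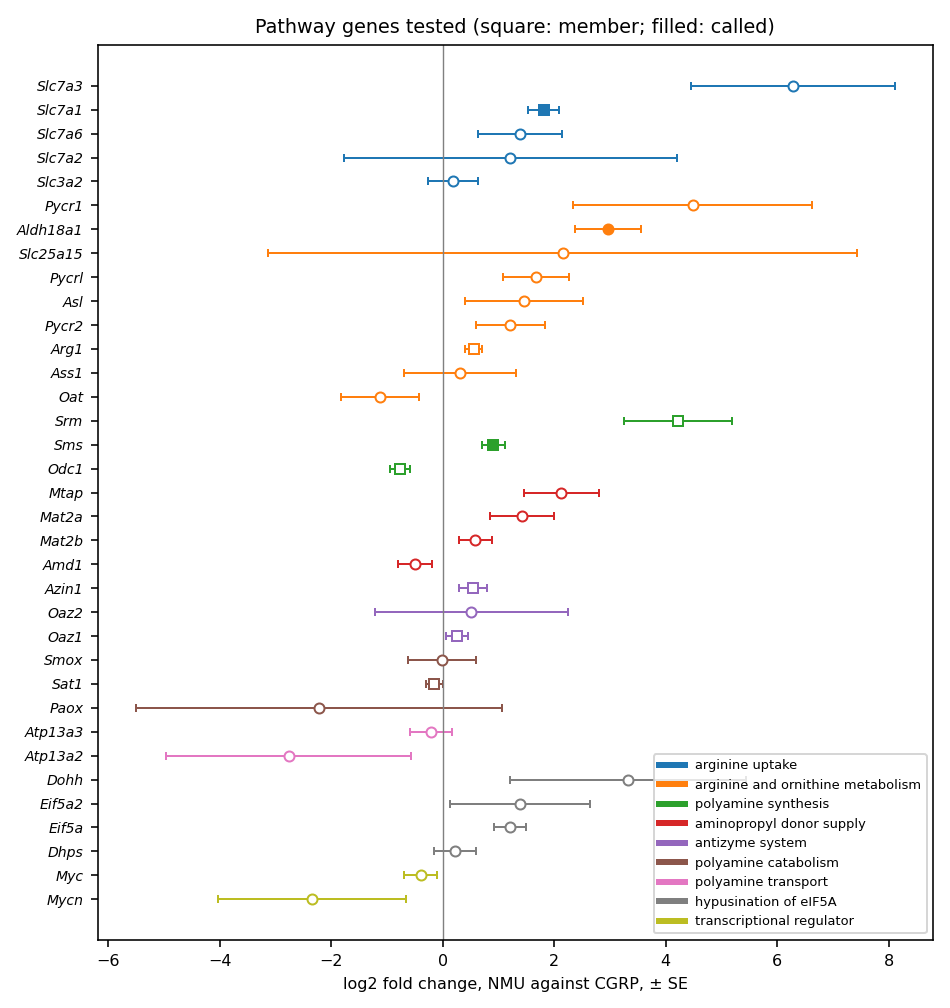
Log2 fold change with SE for NMU against CGRP of the 8 members (squares) and the 27 further pathway genes tested (circles), coloured by role and filled where called. Slc7a1, Sms and Aldh18a1 are filled, all to the right of 0, and Odc1 lies to the left at -0.77.

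No member was called between the genotypes. Over all treatments, 8 against 8 libraries with treatment in the model, 0 of 8 members were called by edgeR or DESeq2, where edgeR called 0.0801% of 14979 genes (12 genes) and DESeq2 0.514%. Sms had the largest value, higher in Pac1-/- cells by 0.40 ± 0.16 on the log2 scale (SE, adjusted p = 0.803), and was the 1 member with an unadjusted p under 0.05 (0.0268), a level that 6.15% of all genes met. Arg1 gave -0.21 ± 0.18 (adjusted p = 0.98), and the other 6 ranged from -0.12 to 0.10. The standard error of Srm, 0.51, was the widest.

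Within single treatments, 2 against 2 libraries, edgeR called 0 of 8 members each time, and DESeq2 called none of them either. edgeR called 0.00916% of 10912 genes with IL-7, 0.00874% of 11448 with IL-33, 0% of 10912 with CGRP and 0.0282% of 10621 with NMU. DESeq2 called 0.715%, 0.577%, 1.85% and 0.621% of them. No member had an unadjusted p under 0.05 in any of the 4, a level met by 5.74% of genes with IL-7, 5.04% with IL-33, 7.53% with CGRP (822 genes) and 5.04% with NMU. With IL-7, Sms was 119 and 150.4 CPM in Pac1-/- cells against 101 and 56.9 in WT (0.78 ± 0.36 on the log2 scale, edgeR adjusted p = 0.991), and with CGRP 92.6 and 107 against 61.8 and 66.1 (0.61 ± 0.29, 0.799). Arg1 was lower in Pac1-/- cells with IL-33, at 269 and 139 CPM against 372 and 274 (-0.65 ± 0.42, 0.997), and the gap was 0.12 ± 0.30 with NMU (0.991). Standard errors of the 8 members ran from 0.14 to 2.12 within treatments, so a p above the threshold does not show that the genotypes were alike.

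**Figure D5:**
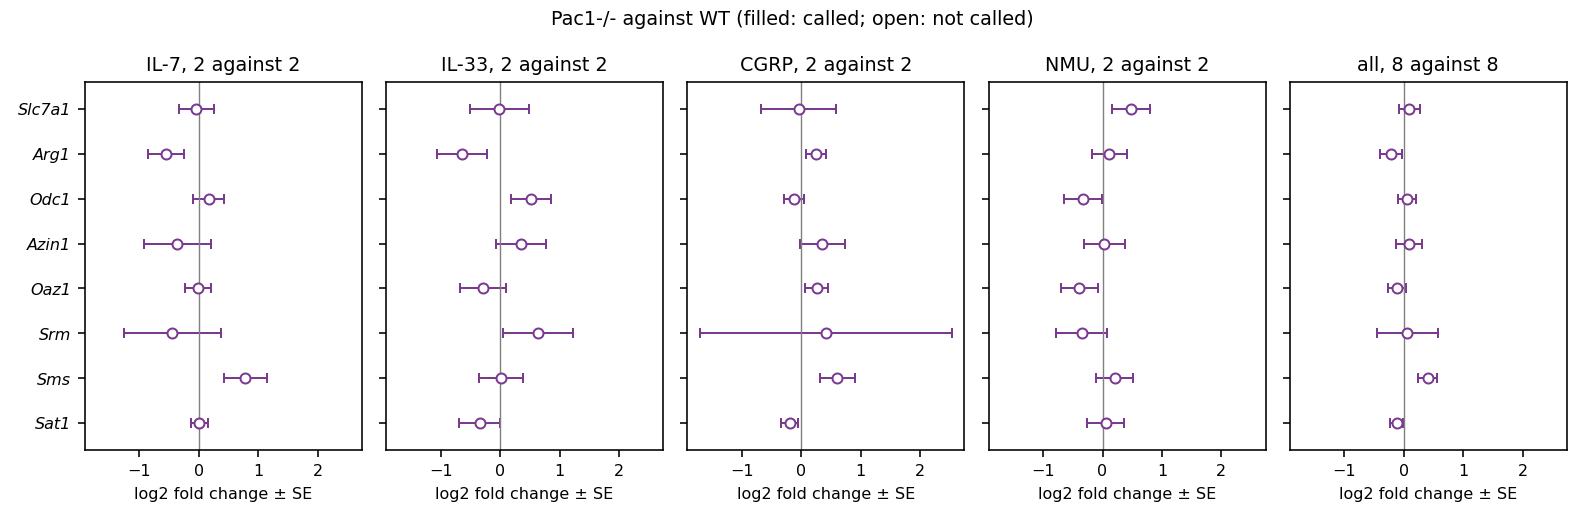
Log2 fold change with SE of each member in Pac1-/- against WT cells within each treatment (2 against 2 libraries) and over all treatments (8 against 8), with no point called. Sms lies highest over all treatments, at 0.40, and the bar of Srm with CGRP is the widest.

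The interaction of genotype and treatment asked whether a treatment moved a member differently without PAC1. edgeR called 0 of 8 members for IL-33, CGRP and NMU, and no gene of any kind: 0% of 12980, 13160 and 12567 genes, with 734, 719 and 801 genes (5.65%, 5.46% and 6.37%) at an unadjusted p under 0.05 and 60, 113 and 38 calls (0.462%, 0.859% and 0.302%) by DESeq2, none of them a member. The lowest p among the members was that of Odc1 with NMU, whose log2 fold change against IL-33 differed by -0.87 ± 0.46 between Pac1-/- and WT cells (SE, edgeR adjusted p = 0.775). Odc1 with CGRP followed, at -0.64 ± 0.34 (adjusted p = 0.855), and then Arg1 with CGRP, at 0.90 ± 0.48 (0.855). Both WT and Pac1-/- IL-33 libraries enter all 3 interactions.

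The genes whose profile over the 16 libraries was most like that of Arg1, by Pearson correlation of log2 CPM among 4880 genes with a mean of 20 CPM or more, were Manf (r = 0.94), an endoplasmic reticulum stress protein, the chemokine receptor gene Ccr8 (0.94), Cd27 (0.88), the chemokine gene Cxcl2 (0.88) and Il5 (0.86), the eosinophil growth factor. Those most like Odc1 were C1qtnf12 (0.83), Pxdc1 (0.83), Elovl5 (0.82), a fatty acid elongase, Ate1 (0.79) and Ogdh (0.79), a subunit of the oxoglutarate dehydrogenase complex. These are descriptions over libraries that fall into 4 treatments and share scaling factors, and carry no test.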

How the data were processed

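Full-length cDNA from about 500 sorted lung ILC2s per library was sequenced and, as described by the study, aligned with HISAT2 to mm10. The deposited values were raw counts per Ensembl gene for all 16 libraries; the counting tool, annotation, use of strand and treatment of multiply mapped reads were not given in the sources used here, and reads shared with pseudogenes may have been split or lost. Groups came from the sample titles. All 51912 genes entered, 51719 matched GENCODE M21 and 51633 had a symbol. Comparisons used the quasi-likelihood test of edgeR 4.0.16 (R 4.3.3) with TMM scaling, filterByExpr and only the libraries of each comparison; treatment comparisons adjusted for genotype and the overall genotype comparison for treatment. The call needed a 1.5-fold change and a Benjamini-Hochberg adjusted p under 0.05. The SE given with edgeR values was derived from the test, as the absolute log2 fold change divided by the square root of the F statistic. DESeq2 1.42.0, other filters and scalings, a replicate block, 1 shared fit and leaving out each library were alternatives. TPM used union exon lengths, and scripts were tested on simulated data. Genes with a near-identical stretch to a member were found with BLAST 2.17.0 (at least 95% identity over at least 100 bases). Text names all 8 members, pathway genes called (up to 10 per comparison), paralogs and isozymes, the 5 genes most like Arg1 and Odc1, and Dusp2. Only some of the genes with a near-identical stretch are named. Aldh18a1 met the rule, and Nos2, Eif5a and Myc were named after their values were seen. Members and lists were chosen with earlier results of these data known.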

Additional observations from a re-analysis of the deposited data

Results flagged for a closer look

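In 32 sets of 4 libraries, 8 members under 4 treatments, 2 had a library set apart from the other 3 by more than the 95% limit of Dixon's test, which chance alone does for about 1 in 20 sets. Arg1 with NMU stood at 738 CPM in replicate 2 of the Pac1-/- cells, above 610.0, 616 and 627 CPM in the others. Srm with IL-33 stood at 15.9 CPM in replicate 2 of the WT cells, below 41.3, 41.9 and 45.8 CPM in the others.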

How the results depend on the processing

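With edgeR, 0 members were called in IL-33 against IL-7, CGRP against IL-33 and NMU against IL-33, and other settings called some: DESeq2 called 1, 1 and 2 members in these comparisons, keeping all genes called 1 in CGRP against IL-33 (Srm) and 1 in NMU against IL-33 (Arg1), and both a minimum of 10 counts and all 16 libraries in 1 fit called 1 in the latter (Arg1). In NMU against CGRP, where 2 were called, DESeq2 and all 16 libraries in 1 fit called 4, keeping all genes called 3 (without Sms) and a minimum of 10 counts 3 (Srm not tested), RLE size factors called 2 with Odc1 in place of Sms, scaling by library totals alone called 1, WT libraries only and Pac1-/- libraries only each called 0, and leaving out 1 library called 0 to 2. Without replicate 2 of the Pac1-/- NMU libraries the count was 0; it was 1, Slc7a1, without replicate 2 of WT CGRP, either Pac1-/- CGRP replicate, replicate 1 of WT NMU or replicate 1 of Pac1-/- NMU. The labels do not say whether the replicate numbers pair the samples. Over 28 pairs of groups the correlation of same-numbered deviations ran from -0.25 to 0.22, with 4 over 0.1. Such values cannot show whether same-numbered libraries shared a mouse or culture. With a replicate block, or a replicate block within genotype, 1 member was called in NMU against CGRP (Slc7a1), and the block changed no other count of members. Every genotype and interaction count stayed at 0 in the settings run. The share of all genes called is given only for edgeR as first described and for DESeq2, 3.86% and 13% in NMU against CGRP. It is not given for the other settings, so a rise or fall in these counts is not a result about the members. The causes of such changes were not tested.

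All values of the members in the treatment comparisons and in the genotype comparison over all treatments were recomputed. Genotype values within a treatment and interaction values entered only if they passed 1.5-fold, so the smaller ones were not checked for direction. Of the 53 log2 fold changes recomputed, 44 kept their direction in every setting run. Those that turned were small: Sms, IL-33 against IL-7, was -0.23 in Pac1-/- libraries only and -0.079 to 0.28 when 1 library was left out; Odc1, CGRP against IL-33, was 0.21 in WT libraries only and -0.28 to 0.012 when 1 was left out; Oaz1, CGRP against IL-33, was 0.12 in Pac1-/- libraries only and -0.33 to 0.014 when 1 was left out. Oaz1, NMU against IL-33, was -0.017 by library totals and -0.0068 to 0.31 when 1 was left out, and Oaz1, NMU against CGRP, was -0.053 in Pac1-/- libraries only. Sat1, NMU against IL-33, was -0.028 in WT libraries only. Over all treatments, the genotype difference of Slc7a1 was -0.017 without the NMU libraries, and when 1 library was left out that of Odc1 ran from -0.029 to 0.13 and that of Srm from -0.16 to 0.37. Library totals in place of TMM moved the median of all genes to 0.28 in IL-33 against IL-7, -0.35 in CGRP against IL-33 and -0.22 in NMU against IL-33, from 0.09, -0.09 and -0.07. Library totals alone, the single-genotype fits, the fit without NMU and the sum of Sms with Sms-ps were chosen after seeing the data. With 3 counts equal to 0.188 to 0.443 CPM, depth limits only Srm with CGRP among the members.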
